A study of Mus musculus with 9 samples.

Results

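The transcripts of MHC class I presentation and of the proteasome core were followed in mouse bone-marrow-derived macrophages given an antibody against PD-L1. The 39 genes described were taken by symbol from the 22376 gene symbols of the data, and all 39 passed the filter on low values. They comprise 10 class I chain genes, 8 genes of peptide transport, loading and trimming, the class I transactivator gene Nlrc5, 3 immunoproteasome catalytic subunits, 3 subunits of the PA28 activators, the 3 constitutive catalytic subunits that the immunosubunits replace, and the other 11 constitutive subunits of the 20S core. The cells were primary macrophages of wild-type C57Bl/6 mice, grown from marrow for 1 week in 10 ng/ml macrophage colony-stimulating factor (M-CSF), washed free of it, and plated at 50000 cells for 48 h. There were 3 groups of 3 libraries of oligo(dT)-selected RNA: wells with 100 µg/ml PD-L1 antibody (libraries 1 to 3), wells with 100 µg/ml of an isotype-matched antibody without a relevant target (libraries 4 to 6), and wells left untreated (libraries 7 to 9). Separate mice or cultures are not named in the labels, so each p-value reflects the spread among these libraries alone, and that spread may be technical. The mice's age was not given in the sources used here.

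MHC class I molecules show peptides from inside the cell to CD8+ T cells. Cytosolic proteins are cut by the proteasome, the peptides are carried into the endoplasmic reticulum by the TAP transporter, trimmed there, and loaded with the help of chaperones onto a heavy chain paired with beta-2-microglobulin. In cells of the immune system, and in other cells under interferon, the catalytic subunits Psmb5, Psmb6 and Psmb7 of newly built proteasomes can be replaced by Psmb8, Psmb9 and Psmb10, which gives the immunoproteasome. In macrophages, class I genes and immunosubunits are known as targets of interferon signalling, and Nlrc5 as the activator that acts on class I promoters.

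The promoters of the genes on which the results turn are shown because most members rose, H2-K1 among them, while H2-D1 was not called. RefSeq's table (build GRCm38.p6) held a promoter for 32 of the 39 genes, and for 28 of these its start was the start in the deposited files. Each sequence is the 250 bases before the start of transcription, 5′ to 3′ in the gene's direction, except that Psmb9 and Tap1 lie back to back with starts 226 bases apart, so the whole stretch between them is shown once. Capitals mark matches, on either strand, to the interferon-stimulated response element core (GAAANNGAA), the gamma-activated sequence (TTCNNNGAA) or the kappa B consensus, and in the stretch between Psmb9 and Tap1 also the CCAAT box (CCAAT).
H2-K1 (chr17:34000334-34000583, minus strand): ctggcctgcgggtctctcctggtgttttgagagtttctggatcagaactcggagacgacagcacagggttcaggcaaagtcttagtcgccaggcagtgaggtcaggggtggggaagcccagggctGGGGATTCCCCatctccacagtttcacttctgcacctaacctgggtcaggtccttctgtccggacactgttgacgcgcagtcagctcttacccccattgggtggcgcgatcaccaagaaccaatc
H2-D1 (chr17:35262844-35263093, plus strand): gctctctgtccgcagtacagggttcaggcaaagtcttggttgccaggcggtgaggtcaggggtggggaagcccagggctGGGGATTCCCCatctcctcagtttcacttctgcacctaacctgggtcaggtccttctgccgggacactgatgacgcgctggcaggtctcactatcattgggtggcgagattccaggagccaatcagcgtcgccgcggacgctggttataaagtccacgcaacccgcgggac
H2-Q7 (chr17:35438905-35439154, plus strand): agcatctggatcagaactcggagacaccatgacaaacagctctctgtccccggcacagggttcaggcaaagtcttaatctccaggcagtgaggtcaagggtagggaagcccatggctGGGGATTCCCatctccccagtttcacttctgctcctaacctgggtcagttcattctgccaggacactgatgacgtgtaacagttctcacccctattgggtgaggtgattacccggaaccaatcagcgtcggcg
B2m (chr2:122147437-122147686, plus strand): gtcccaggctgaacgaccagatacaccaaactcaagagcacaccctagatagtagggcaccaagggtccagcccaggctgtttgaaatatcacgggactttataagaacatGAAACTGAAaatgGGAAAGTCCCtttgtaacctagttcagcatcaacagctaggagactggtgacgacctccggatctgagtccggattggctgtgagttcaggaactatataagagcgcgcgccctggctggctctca
Psmb9 to Tap1 (chr17:34187331-34187555, plus strand): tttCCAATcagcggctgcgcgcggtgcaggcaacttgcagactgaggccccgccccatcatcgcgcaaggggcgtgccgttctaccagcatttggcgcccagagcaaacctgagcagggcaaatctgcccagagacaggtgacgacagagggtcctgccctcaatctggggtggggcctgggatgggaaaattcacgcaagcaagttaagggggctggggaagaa
Psmb8 (chr17:34197945-34198194, plus strand): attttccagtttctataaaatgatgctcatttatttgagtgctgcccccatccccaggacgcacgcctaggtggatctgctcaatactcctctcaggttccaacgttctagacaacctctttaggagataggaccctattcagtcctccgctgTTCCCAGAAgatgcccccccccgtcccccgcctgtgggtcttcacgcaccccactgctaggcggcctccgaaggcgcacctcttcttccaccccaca
Psmb5 (chr14:54617996-54618245, minus strand): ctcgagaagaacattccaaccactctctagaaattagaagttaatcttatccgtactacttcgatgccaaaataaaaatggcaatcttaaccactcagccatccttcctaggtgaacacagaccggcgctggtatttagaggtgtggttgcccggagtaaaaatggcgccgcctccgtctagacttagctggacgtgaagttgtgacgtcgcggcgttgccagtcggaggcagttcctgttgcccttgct
Psma6 (chr12:55398575-55398824, plus strand): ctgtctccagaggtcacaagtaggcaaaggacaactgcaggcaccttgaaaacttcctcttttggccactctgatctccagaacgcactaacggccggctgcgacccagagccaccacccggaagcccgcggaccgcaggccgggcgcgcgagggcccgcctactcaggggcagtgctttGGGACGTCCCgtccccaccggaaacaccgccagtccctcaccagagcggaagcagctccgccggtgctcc

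H2-K1, H2-D1, H2-Q6 and H2-Q7 held the same 10 letters GGGGATTCCC as a kappa B match, so 4 of the 9 class I chain genes with a promoter shared them. In H2-K1, H2-D1 and H2-Q6 a second match overlaps this one by all but 1 base. B2m held a response element core (GAAACTGAA) beside a kappa B match, and Psmb8 a gamma-activated sequence (TTCCCAGAA). No match to these 3 motifs was found in the stretch between Psmb9 and Tap1 or in the promoter of Psmb5. A kappa B match was present in 8 of the 9 class I chain promoters (88.9%), in 2 of the 11 constitutive 20S promoters (18.2%), in 0 of the 3 immunosubunit promoters and in 7.25% of the 32851 promoters of the table. All 9 class I chain promoters held a CCAAT box, against 33.8% of all promoters. The response element core was found in 3 of these 9 and in 7.13% of all promoters, and the gamma-activated sequence in 1 of 9 and in 7.02%. Only the exact core pattern was counted. The letters agtttcacttct past the kappa B match in the H2-K1, H2-D1 and H2-Q7 sequences depart from it and were left out. A promoter without a match may therefore still hold a response element. For the antioxidant response element (TGACNNNGC), 2 of the 11 constitutive 20S promoters had a match, against 10.2% of all. A match describes letters only, and none here shows that a factor was bound.

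Levels are given in CPM, the exonic read equivalents of a gene (deposited coverage times exon length over the read length of 150) per 1000000 of the library's scaled total. Differences are on the log2(CPM + 1) scale with their standard error (SE), and a gene was called at an adjusted p under 0.05 by limma with Benjamini-Hochberg adjustment over 13728 genes. Libraries held 23554320 (untreated 7) to 40116467 (untreated 9) exonic read equivalents. Untreated 7 stood apart from untreated 8 and 9, since leaving it out raised the number of genes called between isotype antibody and untreated wells from 1 to 1339 higher and 958 lower. PD-L1 antibody 2 was read in another lane than the other 8 libraries, by the deposited names. Of the 9 macrophage markers, 4 were higher and 1 lower under the PD-L1 antibody than under the isotype antibody, all without overlap. Over all 13728 tested genes, 18.2% were called higher and 18.2% lower, and 7159 did not overlap. Adgre1 (1.28), Fcgr1 (1.45), Itgam (1.15) and Cd14 (1.71) were higher, and Cd68 (-0.58) was lower. Lyz2, at 9886 to 15130 CPM, and Csf1r, at 2221 to 3767 CPM, were not called, nor was Mertk, at 59.4 to 113 CPM. The sum of the 9, of which Lyz2 is the largest share, was 22850 to 27090 CPM under the PD-L1 antibody, 20320 to 23880 CPM under the isotype antibody and 18220 to 24170 CPM in the untreated wells, with overlap. Whether these markers have a part in the results was not tested. Of other cells' markers, the neutrophil genes Ngp (up to 401 CPM), S100a9 (up to 395 CPM) and Ltf (up to 262 CPM) and the dendritic cell gene Ccr7 (249 to 502 CPM) were clearly present, while Cd3d (T cells), Ncr1 (NK cells) and Ly6g (neutrophils) did not reach the filter and were not tested. In bulk samples, fewer cells of a type and less RNA per cell cannot be told apart.

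**Figure D1:**
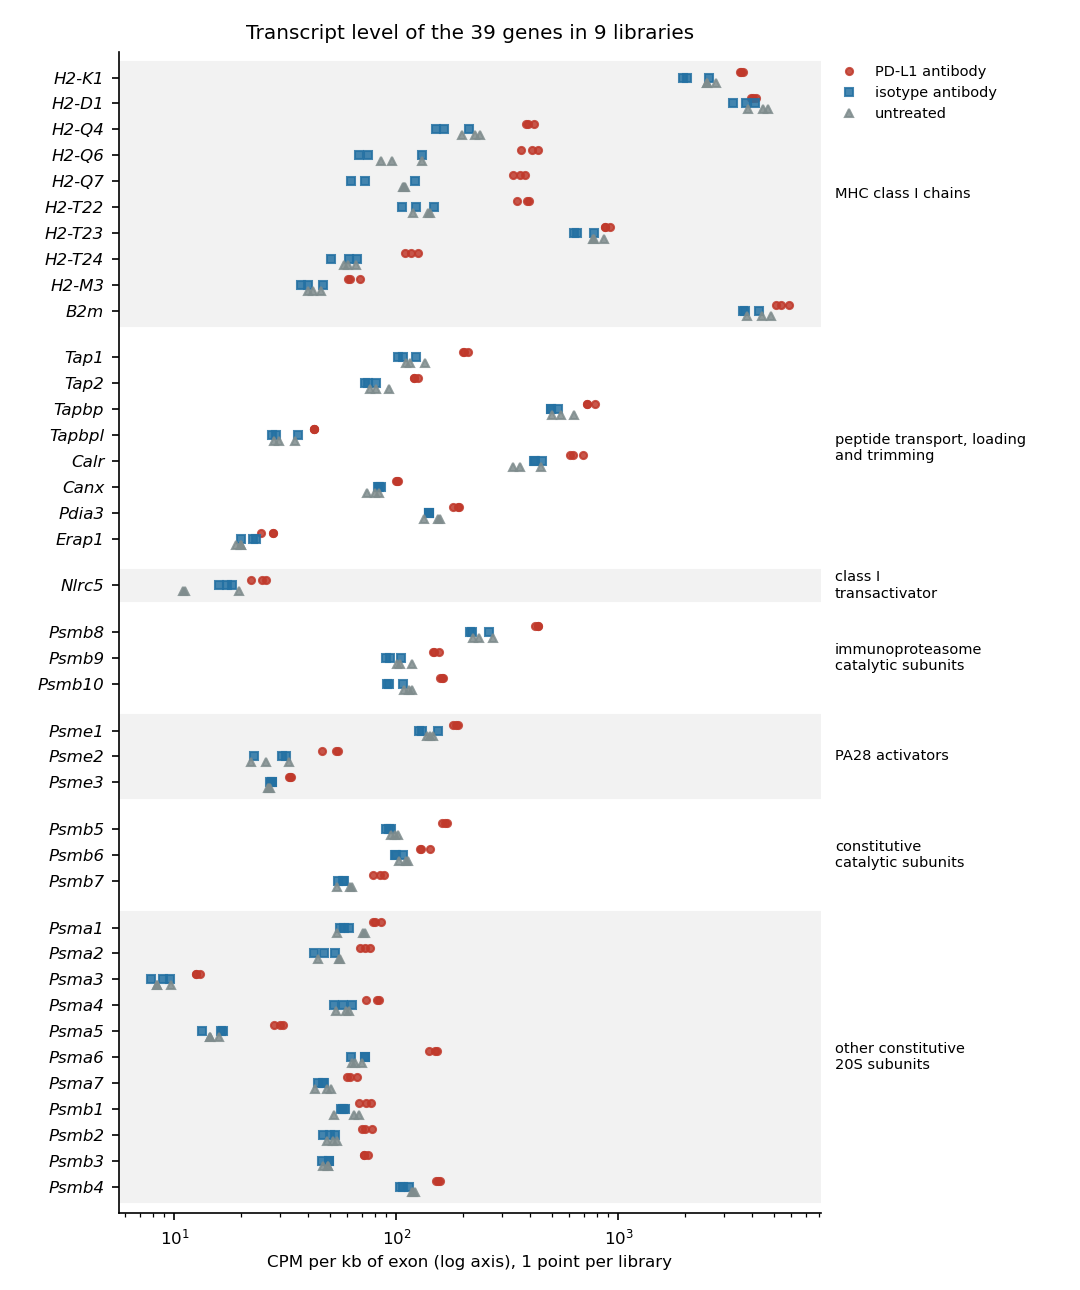
Level of each of the 39 genes in each library, as CPM per kb of exon on a log axis, with genes grouped by role (1 point per library, n = 3 per group). The 3 PD-L1 antibody points lie to the right of the isotype antibody points in 38 genes, and overlap them in H2-D1.

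Under the PD-L1 antibody, 38 of the 39 genes were higher than under the isotype antibody and none was lower, against 18.2% of all tested genes called higher and 18.2% called lower. Against untreated wells 35 of 39 were higher and none was lower, with 22% and 20.5% of all tested genes called. The median difference of the 39 was 0.55 against the isotype antibody and 0.49 against untreated wells, while the medians of all tested genes were -0.01 in both. These comparisons share the PD-L1 antibody libraries, so they are not independent of each other. The gene not called against the isotype antibody was H2-D1, and those not called against untreated wells were H2-D1, H2-T23, B2m and Psmb1. With libraries scaled by total alone, the median of all tested genes shifted to -0.16 and -0.14, the calls over all genes from 2502 higher and 2500 lower to 1565 and 4148 (from 3018 and 2812 to 1939 and 4089 against untreated wells), and 29 of the 39 were higher in each comparison, with none lower. Without PD-L1 antibody 2, and so within 1 lane, 33 of the 39 were higher in each, against 2025 and 2515 of 14068 tested genes. In 38 and 37 of the 39 genes the libraries of the groups did not overlap, against 7159 and 7040 of the 13728 tested genes.

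**Figure D2:**
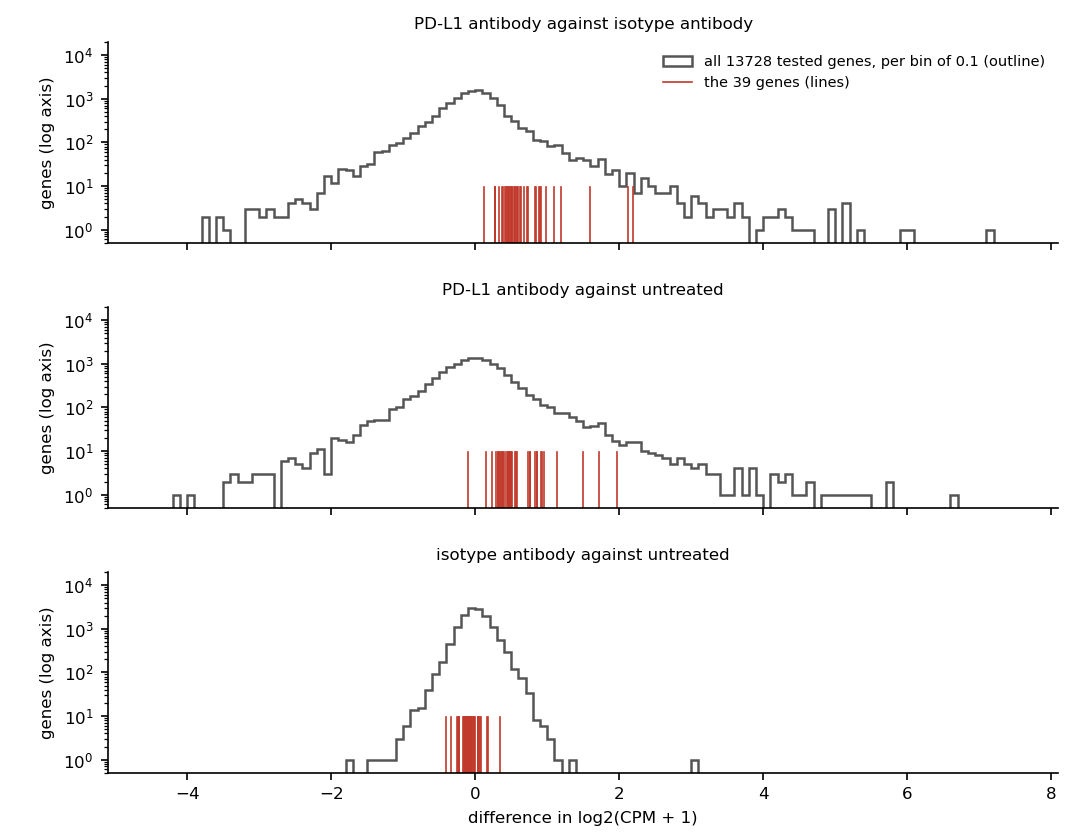
Differences in log2(CPM + 1) of all 13728 tested genes (outline, number of genes per bin on a log axis) and of the 39 genes (lines) in the 3 comparisons. Against the isotype antibody the 39 lie between 0.13 and 2.19, to the right of the peak of all genes, and between isotype antibody and untreated wells they lie between -0.40 and 0.34.

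Of the heavy chains, the classical H2-K1 and H2-D1, the main presenters of peptides to CD8+ T cells, had the highest levels per length (3570 and 4040 CPM per kb under the PD-L1 antibody), and H2-K1 passed the test while H2-D1 did not. H2-K1 (chr17:33996012-34000333, minus strand) stood at 5998, 5777 and 5844 CPM under the PD-L1 antibody, at 4219, 3354 and 3225 CPM under the isotype antibody and at 4142, 4129 and 4542 CPM in the untreated wells. All 3 PD-L1 antibody libraries lay above the other 6. The difference was 0.72 (SE 0.14, limma adjusted p = 0.00251) against the isotype antibody and 0.46 (SE 0.14, limma adjusted p = 0.0234) against untreated wells. The latter call was lost under 8 of 23 alternative settings, with adjusted p up to 0.168 and a difference of 0.31 to 0.50. H2-D1 (chr17:35263094-35267497, plus strand) stood at 7202, 6833 and 7026 CPM under the PD-L1 antibody, at 7123, 6543 and 5677 CPM under the isotype antibody and at 6651, 7787 and 8223 CPM in the untreated wells. Its groups overlapped in both comparisons, and the differences of 0.13 and -0.10 (SE 0.16 in both, limma adjusted p = 0.571 and 0.646) did not pass. The 95% interval of the first ran from -0.22 to 0.48, and with scaling by total alone its sign turned, to -0.05.

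Within a library, the log2 ratio of H2-K1 to H2-D1 per length was -0.19, -0.17 and -0.19 under the PD-L1 antibody and between -0.89 and -0.61 in the other 6 libraries. The mean moved by 0.59 against the isotype antibody (95% interval 0.42 to 0.76) and by 0.56 against untreated wells (0.37 to 0.76). This ratio was chosen after its values were seen, and so carries no test, and its intervals do not allow for that choice. Of the summed transcripts of the 9 heavy chain genes per length, H2-D1 made up 39.6 ± 0.70% (SD, n = 3) under the PD-L1 antibody, 51.9 ± 2.02% under the isotype antibody and 51.6 ± 2.19% in the untreated wells. The share of H2-K1 was 34.9 ± 0.32%, 30.5 ± 1.09% and 30.9 ± 1.27%. The summed heavy chain level itself was 10070 to 10440 CPM per kb under the PD-L1 antibody, 6362 to 8171 under the isotype antibody and 7791 to 9045 in the untreated wells, without overlap of the first with the others.

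**Figure D3:**
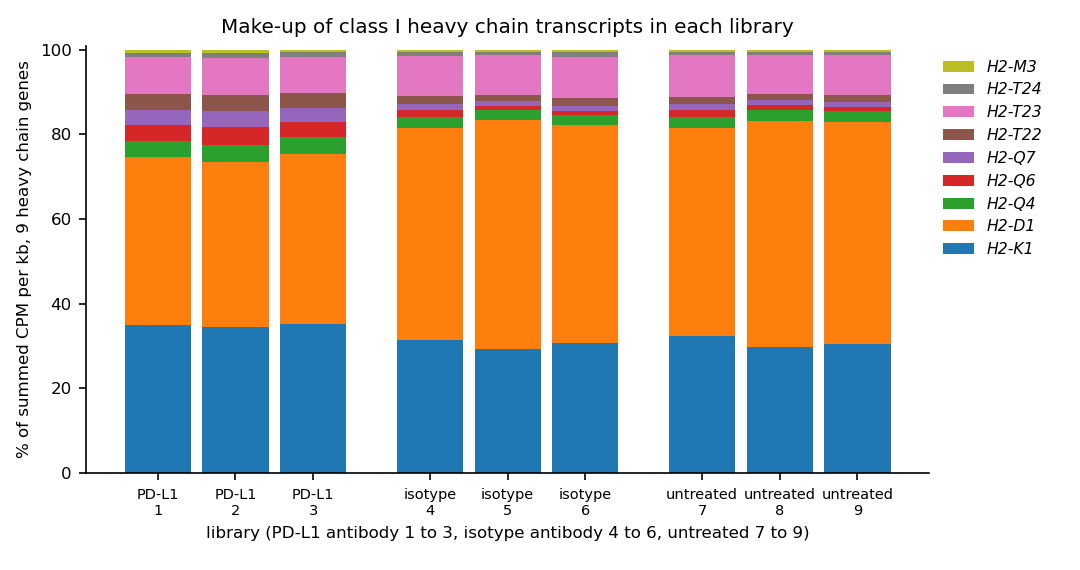
Share of each heavy chain gene in the summed CPM per kb of the 9 heavy chain genes, 1 stacked bar per library. H2-D1 takes 38.8 to 40.2% in the PD-L1 antibody libraries and 49.2 to 54.1% in the other 6.

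Of the 10 chains, H2-Q6 and H2-Q7 of the Qa region rose most in both comparisons. H2-Q7 (chr17:35439155-35443773, plus strand), which encodes a Qa-2 antigen, stood at 555, 583 and 515 CPM under the PD-L1 antibody, at 187, 111 and 95.7 CPM under the isotype antibody and at 168, 165 and 165 CPM in the untreated wells. H2-Q6 stood at 399, 427 and 357 CPM, against 128, 73.2 and 66.8 CPM and 127, 83.5 and 93.8 CPM. In both genes the lowest PD-L1 antibody library was far above the highest of the others, which was isotype antibody 4 in each case. The differences were 2.12 for H2-Q7 (SE 0.19, limma adjusted p = 8.77e-06) and 2.19 for H2-Q6 (SE 0.22, limma adjusted p = 2.13e-05), which are means 4.20-fold and 4.42-fold those under the isotype antibody. H2-Q4, another chain of this region, stood at 704, 746 and 688 CPM, against 381, 295 and 272 CPM under the isotype antibody and 352, 403 and 427 CPM in the untreated wells. It was higher in all 3 libraries, by 1.19 (SE 0.12, limma adjusted p = 2.91e-05) and 0.86.

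The files list H2-Q6 and H2-Q8 over the same span, with the same number of reads in all 9 libraries. H2-Q7 and H2-Q9, and H2-T22 and H2-T9, also share nearly all of their span, and H2-D1 shares 3608 of its 4404 bases with H2-L. Each such pair is 1 locus here rather than 2 genes. Reads can also be split between near-identical class I genes elsewhere, so the values of single heavy chains are uncertain. This holds for the ratio of H2-K1 to H2-D1 and for the shares of the heavy chains too. In all, the spans of 13 of the 39 genes overlap that of another annotated gene.

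In the T and M regions the sizes ranged widely. H2-T22, whose product is recognised by some gamma delta T cells, stood at 684, 692 and 614 CPM under the PD-L1 antibody, 259, 186 and 214 CPM under the isotype antibody and 248, 209 and 243 CPM in the untreated wells. All 3 PD-L1 antibody libraries were above the other 6, with a difference of 1.60 (SE 0.12, limma adjusted p = 2.52e-06). H2-T24 stood at 253, 272 and 240 CPM, against 145, 111 and 133 CPM and 132, 126 and 144 CPM. Its difference of 0.98 (SE 0.10, limma adjusted p = 3.12e-05) was again shown by all 3 libraries. H2-M3, which presents peptides with N-formyl groups as bacteria and mitochondria make them, stood at 85.9, 97.3 and 88.4 CPM, against 66.4, 52.9 and 56.9 CPM and 59.8, 57.0 and 65.5 CPM. It was higher by 0.62 (SE 0.10, limma adjusted p = 0.000526), without overlap. H2-T23 encodes Qa-1, the ligand of the NKG2A receptor of NK and T cells. It stood at 1210, 1151 and 1140 CPM, against 1026, 856 and 828 CPM under the isotype antibody and 1006, 1023 and 1129 CPM in the untreated wells. Its 0.38 (SE 0.10, limma adjusted p = 0.0163) against the isotype antibody was lost under 7 of 23 alternatives, and its 0.15 (limma adjusted p = 0.273) against untreated wells did not pass.

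B2m (chr2:122147687-122153082, plus strand), the light chain that all of these heavy chains need, stood at 4642, 5023 and 4387 CPM under the PD-L1 antibody, at 3686, 3113 and 3191 CPM under the isotype antibody and at 3259, 3786 and 4171 CPM in the untreated wells. The lowest PD-L1 antibody library was above the highest of both other groups, though close to untreated 9. The difference was 0.49 (SE 0.14, limma adjusted p = 0.0187) against the isotype antibody, a call lost under 7 of 23 alternatives, and 0.33 (SE 0.14, limma adjusted p = 0.084) against untreated wells. Of the 10 chains, 9 were thus higher against the isotype antibody (median 0.85) and 7 against untreated wells (median 0.71).

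All 8 genes of peptide transport, loading and trimming were higher in both comparisons, with medians of 0.51 and 0.45. Tap1 and Tap2 encode the subunits of the transporter that moves peptides into the endoplasmic reticulum. Tap1 (chr17:34187556-34197225, plus strand) stood at 593, 623 and 587 CPM under the PD-L1 antibody, at 363, 301 and 315 CPM under the isotype antibody and at 398, 326 and 341 CPM in the untreated wells. Tap2 stood at 298, 299 and 312 CPM, against 202, 185 and 181 CPM and 230, 189 and 202 CPM. In both genes every PD-L1 antibody library was above every other, and within the other groups isotype antibody 4 and untreated 7 were highest. The differences against the isotype antibody were 0.88 for Tap1 (SE 0.10, limma adjusted p = 4.97e-05) and 0.68 for Tap2 (SE 0.09, limma adjusted p = 0.000124).

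Tapbp encodes tapasin, which bridges empty class I molecules to the transporter. Its levels were 1993, 1990 and 2165 CPM under the PD-L1 antibody, 1472, 1366 and 1360 CPM under the isotype antibody and 1742, 1382 and 1513 CPM in the untreated wells, again without overlap. It was higher by 0.55 (SE 0.11, limma adjusted p = 0.00283) and by 0.41 (limma adjusted p = 0.0124), the latter lost under 4 of 23 alternatives. Calr, the lectin chaperone calreticulin of the loading complex, had differences of 0.58 and 0.76, and Tapbpl, the tapasin-related peptide editor, of 0.47 and 0.46. Pdia3, the oxidoreductase paired with tapasin, had 0.42 and 0.34, Canx, the chaperone calnexin, 0.27 and 0.35, and Erap1, the aminopeptidase that trims peptides, 0.28 and 0.44. The call of Erap1 against the isotype antibody was lost under 7 of 23 alternatives and that of Canx under 4.

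Nlrc5 (chr8:94472763-94527272, plus strand), the transactivator of class I promoters, had low levels per length. It stood at 154, 173 and 180 CPM under the PD-L1 antibody, at 120, 110 and 126 CPM under the isotype antibody and at 136, 76.1 and 77.3 CPM in the untreated wells. All 3 PD-L1 antibody libraries were highest, and untreated 7 lay above the isotype antibody libraries while untreated 8 and 9 lay below them. The difference of 0.51 (SE 0.18, limma adjusted p = 0.0496) against the isotype antibody barely passed and was lost under 16 of 23 alternatives, among them leaving out any 1 PD-L1 or isotype antibody library. Against untreated wells it was 0.85 (SE 0.18, limma adjusted p = 0.00335).

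**Figure D4:**
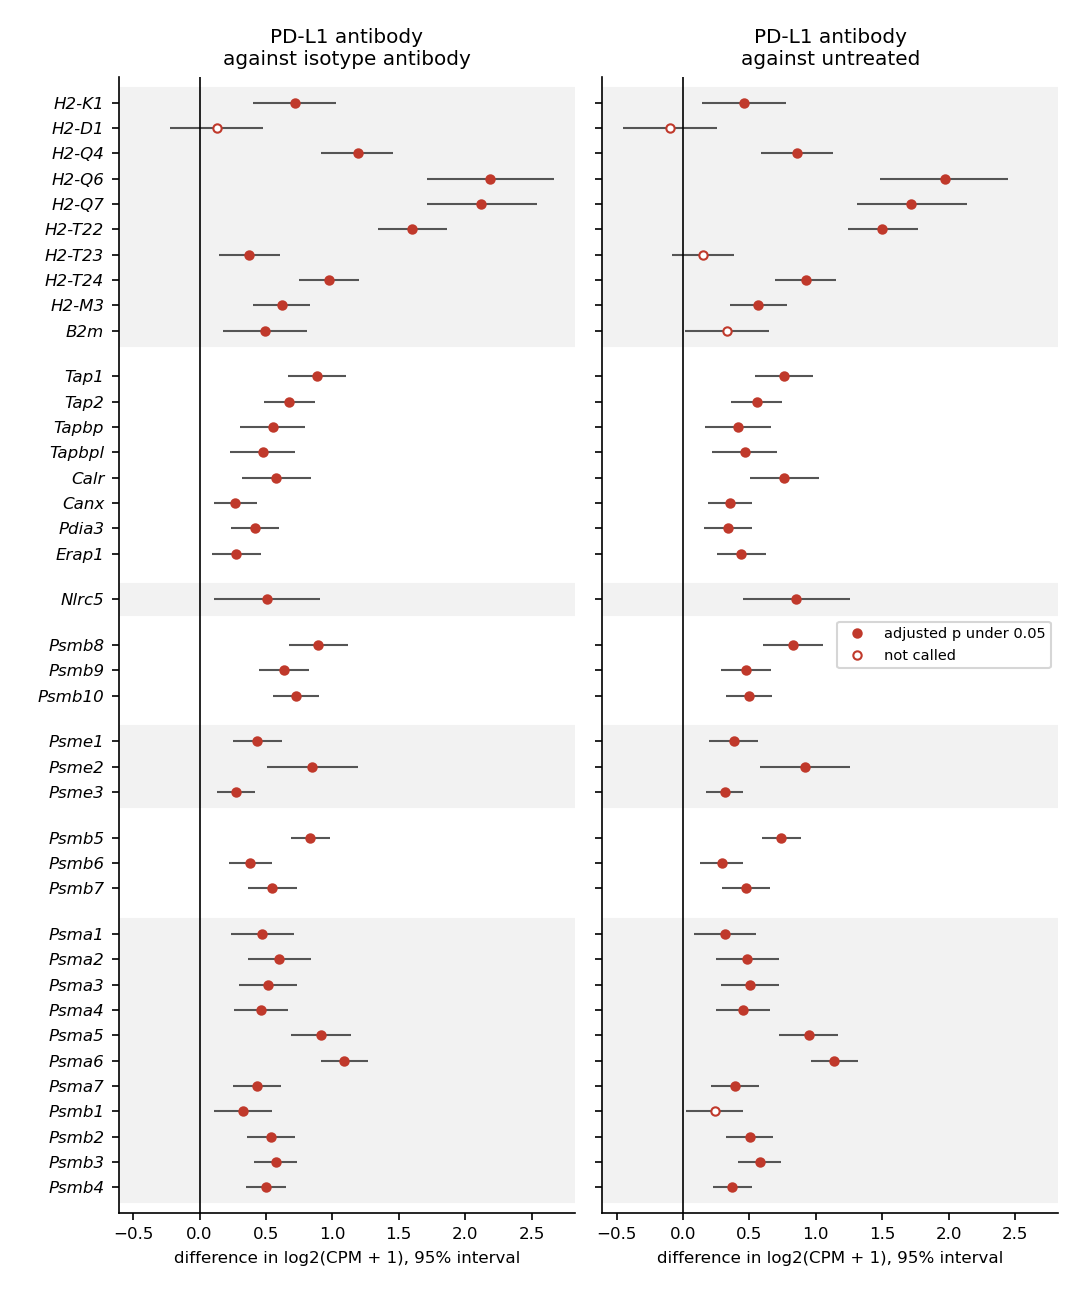
Difference of each gene in log2(CPM + 1) with its 95% interval from limma, on the left against the isotype antibody and on the right against untreated wells. Filled points have an adjusted p under 0.05, and the open points are H2-D1 on the left and H2-D1, H2-T23, B2m and Psmb1 on the right.

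The 3 immunosubunits and the 3 constitutive subunits they replace all rose. Psmb8 (LMP7, with chymotrypsin-like activity; chr17:34198195-34201454, plus strand) stood at 532, 529 and 514 CPM under the PD-L1 antibody, at 319, 268 and 262 CPM under the isotype antibody and at 333, 270 and 288 CPM in the untreated wells. Psmb5, the chymotrypsin-like subunit that it replaces (chr14:54614120-54617995, minus strand), stood at 147, 140 and 145 CPM, against 78.5, 82.1 and 80.5 CPM and 82.7, 88.8 and 85.99 CPM. Neither gene's PD-L1 antibody libraries overlapped with the others. Against the isotype antibody Psmb8 was higher by 0.89 (SE 0.10, limma adjusted p = 5.01e-05) and Psmb5 by 0.83 (SE 0.07, limma adjusted p = 3.81e-06).

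Psmb9 (LMP2; chr17:34182099-34187330, minus strand) stood at 119, 125 and 118 CPM under the PD-L1 antibody, at 84.8, 75.7 and 72.1 CPM under the isotype antibody and at 94.3, 81.2 and 84.0 CPM in the untreated wells. Psmb6, its caspase-like partner, stood at 146, 133 and 134 CPM, against 111, 102 and 103 CPM and 117, 106 and 115 CPM. Both were higher in all 3 libraries, Psmb9 by 0.63 (SE 0.09, limma adjusted p = 0.000186) and Psmb6 by 0.38 (SE 0.07, limma adjusted p = 0.00217; 0.0532 with scaling by total alone). Psmb10 (MECL-1; chr8:105935728-105938392, minus strand) stood at 204, 206 and 200 CPM, against 135, 117 and 115 CPM and 149, 138 and 145 CPM. Psmb7, its trypsin-like partner, stood at 81.3, 85.3 and 75.9 CPM, against 56.4, 52.6 and 55.7 CPM and 52.5, 60.02 and 61.2 CPM. These did not overlap either, with Psmb10 higher by 0.73 (SE 0.08, limma adjusted p = 3.71e-05) and Psmb7 by 0.55 (SE 0.08, limma adjusted p = 0.00041). Against untreated wells all 6 were also called, by 0.83, 0.48 and 0.50 for Psmb8, Psmb9 and Psmb10 and by 0.74, 0.29 and 0.48 for Psmb5, Psmb6 and Psmb7.

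Whether the immunosubunits rose beyond their partners was asked within each library, where scaling between libraries cancels. The log2 ratio of Psmb8 to Psmb5 per length was 1.37, 1.42 and 1.34 under the PD-L1 antibody, 1.53, 1.22 and 1.21 under the isotype antibody and 1.52, 1.11 and 1.25 in the untreated wells. These groups overlapped, and the difference of 0.06 against the isotype antibody (95% interval -0.24 to 0.36) had an exact two-sided permutation p = 0.6 and 0.771 adjusted over 9 tests. For Psmb9 to Psmb6 the ratios were 0.07, 0.28 and 0.17, against -0.02, -0.07 and -0.15 and 0.05, -0.02 and -0.09. The PD-L1 antibody libraries were the highest 3, with a difference of 0.25 (0.05 to 0.45) against the isotype antibody and 0.19 (-0.01 to 0.39) against untreated wells. Psmb10 to Psmb7 gave 0.93, 0.88 and 1.01, against 0.87, 0.77 and 0.66 and 1.11, 0.81 and 0.85, so the PD-L1 antibody libraries were above those of the isotype antibody by 0.18 (-0.02 to 0.38) but not above untreated 7. Where groups did not overlap the exact permutation p was 0.1, the smallest that 3 against 3 libraries allow, and 0.3 after adjustment, so none of the 9 ratio tests could or did pass.

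Over all 6 catalytic genes, the immunosubunits made up 65.9 ± 0.58% (SD, n = 3) of the transcripts per length under the PD-L1 antibody, 62.8 ± 1.92% under the isotype antibody and 63.4 ± 2.21% in the untreated wells. The highest libraries of the control groups, isotype antibody 4 at 64.9% and untreated 7 at 65.9%, came close to or within the PD-L1 antibody range of 65.4 to 66.5%. In levels per length the immunosubunits summed to 724 to 750 CPM per kb under the PD-L1 antibody and 394 to 472 under the isotype antibody. Their partners summed to 374 to 393 and 247 to 255 CPM per kb. In every library, Psmb8 was the highest of the 6 per length, and isotype antibody 4 and untreated 7 held the highest Psmb8 of their groups.

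**Figure D5:**
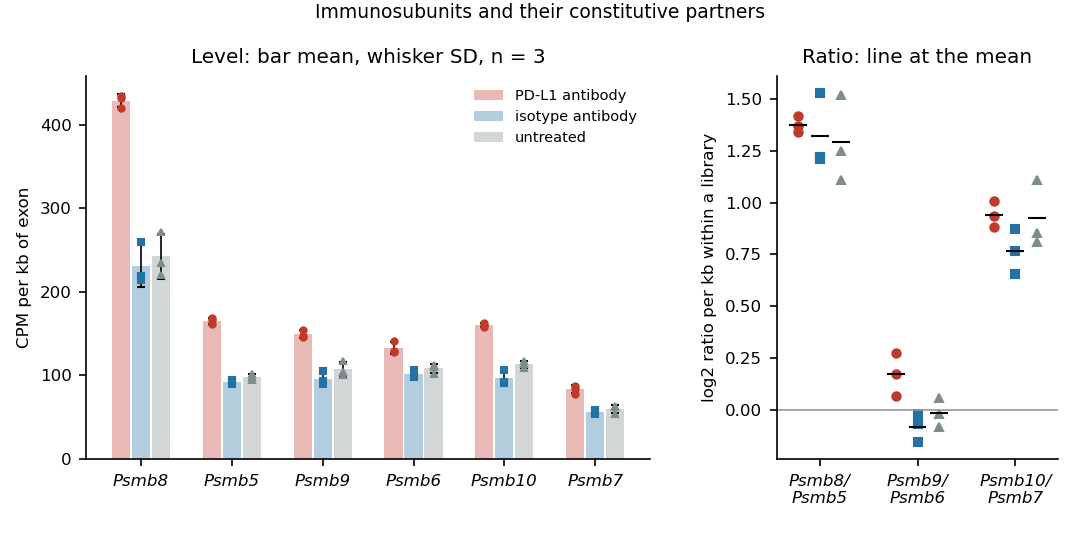
On the left, the level of each immunosubunit beside its constitutive partner in CPM per kb of exon (bars, means; whiskers, SD; points, libraries; n = 3 per group), and on the right the log2 ratio of each pair within a library (points) with group means (lines). All 6 levels are higher under the PD-L1 antibody, while the ratio of Psmb8 to Psmb5 overlaps between groups.

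The PA28 activators open the gate of the 20S core, PA28 alpha and beta (Psme1 and Psme2) in the cytosol and PA28 gamma (Psme3) in the nucleus. Psme2 (chr14:55587440-55591021, minus strand) stood at 47.9, 49.1 and 41.3 CPM under the PD-L1 antibody, at 28.4, 20.5 and 27.3 CPM under the isotype antibody and at 29.6, 19.8 and 23.1 CPM in the untreated wells. Psme1 stood at 182, 185 and 175 CPM, against 150, 124 and 127 CPM and 139, 134 and 143 CPM. The PD-L1 antibody libraries were highest in both genes, with differences of 0.85 for Psme2 (SE 0.15, limma adjusted p = 0.00146) and 0.44 for Psme1 (SE 0.08, limma adjusted p = 0.00198). The ratio of Psme2 to Psme1, chosen after its values were seen, moved by 0.43 (95% interval 0.10 to 0.77, which does not allow for that choice). Psme3 was higher by 0.27 (SE 0.06, limma adjusted p = 0.00605), a call lost when libraries were scaled by total alone (limma adjusted p = 0.262).

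All 14 constitutive 20S subunits were higher against the isotype antibody (median 0.53, range 0.33 to 1.09), and 13 of 14 against untreated wells (median 0.48). The largest rise was that of Psma6 (chr12:55398825-55418459, plus strand), which encodes the alpha 1 subunit of the outer ring. Its levels were 148, 152 and 140 CPM under the PD-L1 antibody, 71.7, 62.3 and 71.6 CPM under the isotype antibody and 65.0, 63.0 and 69.6 CPM in the untreated wells. Every PD-L1 antibody library was above the other 6, with differences of 1.09 (SE 0.08, limma adjusted p = 2.44e-06) and 1.14. Psma5, the alpha 5 subunit, followed with 0.92 and 0.95, from a level of 16.2 to 20.1 CPM under the isotype antibody to 34.1 to 37.6 CPM. The other 5 alpha subunits rose by 0.43 to 0.60 against the isotype antibody. The 7 constitutive beta subunits rose by 0.33 to 0.83, with Psmb5 at the top and Psmb1 at the bottom.

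Psmb1, a beta subunit without a catalytic site, was the constitutive subunit that did not pass against untreated wells. It stood at 79.6, 75.4 and 70.0 CPM under the PD-L1 antibody, at 60.8, 59.4 and 58.3 CPM under the isotype antibody and at 54.3, 66.8 and 70.1 CPM in the untreated wells. PD-L1 antibody 3 and untreated 9 met, and the difference of 0.24 had a limma adjusted p = 0.0718. Against the isotype antibody its 0.33 (SE 0.10, limma adjusted p = 0.0226) was lost under 8 of 23 alternatives. Psma1, called at 0.32 (limma adjusted p = 0.0334) against untreated wells, lost that call under 11 of 23.

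Although the 14 subunits are present in equal numbers in the assembled core, their transcripts per length spanned 13.1-fold under the PD-L1 antibody, 12.4-fold under the isotype antibody and 13.5-fold in the untreated wells. Psma3 was the lowest in each group, at 12.6, 8.74 and 8.79 CPM per kb. Its value rests on the transcript with the highest sum, which is longer than those of the other alpha subunits. Psmb5 was the highest under the PD-L1 antibody (165 CPM per kb), and Psmb4 in the other groups (109 and 119 CPM per kb). The ratio of Psma6 to Psma7, chosen after its values were seen, was 1.17 to 1.30 under the PD-L1 antibody and 0.37 to 0.62 in the other libraries.

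Isotype antibody and untreated wells were not told apart by any of the 39 genes. None was called higher, where 1 of 13728 tested genes (0.00728%) was, and none lower, where 0% of genes were. In limma 2 of the 39, H2-Q4 and Psmb10, had an unadjusted p under 0.05, against 12.7% of all genes, and edgeR and DESeq2 also called 0. The median difference was -0.08, and the isotype antibody mean was the lowest of the 3 groups in 30 genes. The order PD-L1 antibody, untreated, isotype antibody was seen in 29 genes, the order PD-L1 antibody, isotype antibody, untreated in 9, and H2-D1 alone was highest in the untreated wells. In 4 of the 39 genes the libraries of these 2 groups did not overlap, against 1802 of 13728. Without untreated 7, Nlrc5 (0.62) and Calr (0.30) were higher and H2-Q4 (-0.41) and Psma1 (-0.29) lower under the isotype antibody, at limma adjusted p = 0.00157, 0.0463, 0.041 and 0.0191.

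Within groups, single libraries moved across many of the genes at once. Isotype antibody 4 was the highest of its group in 29 of 39 genes, PD-L1 antibody 3 the lowest of its group in 25, and untreated 8 the lowest in 22. PD-L1 antibody 2 was the highest in 20, isotype antibody 5 the lowest in 20 and untreated 9 the highest in 19. These positions were not counted over all tested genes, so whether they are particular to the 39 is not known. Beside this, summed neutrophil and precursor markers stood at 1264 CPM in isotype antibody 4, at 674 and 697 CPM in isotype antibody 5 and 6, at 350 to 492 CPM under the PD-L1 antibody and at 505 to 701 CPM in the untreated wells. Of the 8 tested markers of this list, 5 were lower and none higher under the PD-L1 antibody than under the isotype antibody, led by the granule genes Ltf (-2.06) and Ngp (-1.71). Over all tested genes, 18.2% were lower and 18.2% higher in this comparison, a share that also stands beside the marker counts that follow. Retnlg, which marks mature neutrophils, was at 0 to 0.17 CPM under the PD-L1 antibody, at 0.47 to 2.11 CPM under the isotype antibody and at 0.95 to 1.41 CPM in the untreated wells. Of 8 dendritic cell markers 1 was higher and 3 lower. Their sums, most of which is Ccr7, were 407 to 464 CPM under the PD-L1 antibody and 320 to 540 CPM under the isotype antibody. T and NK cell markers summed to 2.41 to 4.99 CPM under the PD-L1 antibody, 4.85 to 13.7 CPM under the isotype antibody and 10.95 to 21.95 CPM in the untreated wells, with 1 of 5 lower against the isotype antibody. That marker was Cd4, which also made up most of the untreated sums, at 7.34 to 17.4 CPM. Cd3e, Cd3g and Nkg7 reached at most 0.823 CPM in any library. B and plasma cell markers (0 of 3 called) summed to 5.31 to 17.9 CPM over the 9 libraries, mast cell and basophil markers (0 of 4) to 9.11 to 19.8 CPM, and stromal, endothelial and red cell markers (2 of 7 higher, 1 lower) to 37.0 to 85.6 CPM. Their part in the results was not tested either. Without isotype antibody 4, 37 of the 39 genes were still called higher against the isotype antibody, as were 2131 of 13963 tested genes.

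Other proteasome genes were read from lists of which every tested member is counted. Over all tested genes, 18.2% were called higher and 18.2% lower against the isotype antibody, and 22% and 20.5% against untreated wells. These shares stand beside the counts of all lists below, and counts near them do not set a list apart. The 19S list covers the 19S regulatory particle, which recognises and unfolds ubiquitinated proteins, and also assembly chaperones such as Psmd10. Of its 22 genes, 19 were higher and 1 lower against the isotype antibody (median 0.42), and 16 and 2 against untreated wells. By lowest p these were led by Psmd10 (gankyrin, an assembly chaperone), at 50.7 to 54.3 CPM against 23.4 to 24.4 CPM under the isotype antibody, a difference of 1.10. The ATPase genes Psmc5 (0.75) and Psmc1 (0.77) and the lid gene Psmd11 (0.59) followed. Psmd8, also a lid gene and named after its values were seen, went the other way, at 142 to 157 CPM against 180 to 199 CPM, a difference of -0.31 (limma adjusted p = 0.0109).

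Among 11 tested assembly factors and other regulators, 3 were higher and 1 lower (median -0.07). Nfe2l1, the transcription factor of proteasome subunit genes, stood at 516, 507 and 530 CPM under the PD-L1 antibody, at 315, 266 and 295 CPM under the isotype antibody and at 291, 247 and 250 CPM in the untreated wells. It was higher in all 3 libraries, by 0.83 (SE 0.09, limma adjusted p = 4.22e-05) and 0.98. Psme4, the PA200 activator, had a difference of 0.51, and Pomp, the maturation factor of new cores, of 0.36. Ddi2, the protease that activates Nfe2l1, was lower by -0.34 (limma adjusted p = 0.00816) against the isotype antibody, and its difference of -0.06 against untreated wells did not pass.

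Of 19 other class I and class I-like genes, 8 were higher and 2 lower (median 0.27). H2-Q5 (1.17) and H2-T10 (1.42) were higher, as was H2-Q8 (2.19), which is the locus of H2-Q6 again. H2-K2, another locus of the K region, was lower, at 16.3 to 19.7 CPM against 27.8 to 31.0 CPM, by -0.70 (limma adjusted p = 0.000186). Among 11 tested peptidases 4 were higher and none lower against the isotype antibody, and 8 and none against untreated wells. Rnpep, the aminopeptidase B gene, led them with 457 to 509 CPM against 264 to 298 CPM, a difference of 0.74. Ide, Npepps and Nrd1, also peptidase genes, had 0.23, 0.20 and 0.22, calls that were lost under 11, 15 and 15 of 23 alternatives. Under 1 further alternative, edgeR on the deposited counts with introns, Ide was called lower in place of higher, in both comparisons.

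Genes of cross-presentation and class I trafficking moved both ways, 10 higher and 2 lower of 20 (median 0.23). Rab11a, a GTPase of recycling endosomes, had a difference of 0.57, and Hsp90b1, the chaperone GRP94, of 0.49. Snap23 (-0.53), a membrane fusion protein, and Erp29 (-0.35), a chaperone of the endoplasmic reticulum, were lower. Of 27 tested regulators of class I and immunoproteasome genes, 14 were higher and none lower against the isotype antibody, and 13 and 3 against untreated wells. Jak2, a kinase of cytokine receptors, stood at 289, 294 and 329 CPM under the PD-L1 antibody, at 95.6, 87.8 and 82.9 CPM under the isotype antibody and at 96.2, 66.2 and 69.8 CPM in the untreated wells. All 3 PD-L1 antibody libraries were above the other 6, with a difference of 1.76 (SE 0.13, limma adjusted p = 2.08e-06) against the isotype antibody. Socs1, an inhibitor of cytokine signalling, had a difference of 1.92.

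Ifnb1, which encodes interferon beta, was low, at 2.08, 2.88 and 2.76 CPM under the PD-L1 antibody. Under the isotype antibody it was at 0.13, 0.08 and 0.05 CPM and in the untreated wells at 0.15, 0.135 and 0 CPM, so the PD-L1 antibody libraries stood apart (limma adjusted p = 3.64e-06). Ifng, which encodes interferon gamma, did not reach the filter. Under scaling by total alone, 1565 of the 13728 tested genes were higher and 4148 lower against the isotype antibody. The counts of the lists became 13 higher and 1 lower of 22 for the 19S list and 3 and 5 of 11 for assembly factors. They were 7 and 3 of 19 for other class I genes and 1 and 3 of 11 for peptidases. For trafficking they were 2 and 2 of 20, and for regulators 12 and 4 of 27.

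The profile of the 3 immunosubunits over the 9 libraries was set beside 9877 genes with a mean of at least 5 CPM. The symbols most like it outside the 39 were H2-Q8 (Pearson's r = 0.9925), which is the locus of the member H2-Q6 and so no further gene, and Ogfr (0.9919), Ctsz (0.9915), Trex1 (0.9907) and Ift22 (0.9901). These are descriptions across the same 9 libraries, which fall into PD-L1 antibody libraries and the rest. Trex1, the exonuclease that clears cytosolic DNA, stood at 342 to 373 CPM under the PD-L1 antibody and 219 to 276 CPM in the other libraries, and Ctsz, the gene of cathepsin Z, at 2742 to 2904 and 1658 to 2028 CPM.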

How the data were processed

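RNA of 9 wells of mouse macrophages (3 groups of 3) was sequenced. The authors' deposited tables hold, per RefSeq transcript, whole-number read counts over the whole span of the transcript, introns included, the average coverage of its exons (a signal not scaled for depth) and its exon length in bases, per the file headers. Partek and STAR are named in the submitters' processing notes, and the genome build was not given in the sources used here. Because the deposited counts include introns, coverage was multiplied by exon length and divided by the read length of 150, and the transcript with the largest sum stood for each of 22376 symbols. Summed over symbols, these exonic read equivalents were 67.7 to 70.6% of the deposited reads, taken for each symbol from its transcript with most reads. Whether the reads were counted by strand was not given in the sources used here.

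Genes were kept by edgeR's filterByExpr (13728 genes), scaled by TMM (factors 0.919 to 1.06), expressed as log2(CPM + 1), and fitted over all 9 libraries with limma 3.58.1 (trend, 1 mean per group; R 4.3.3), with Benjamini-Hochberg adjustment over all tested genes. Ratios within a library were tested by exact permutation (scipy 1.17.1). edgeR 4.0.16 and DESeq2 1.42.0, run on rounded equivalents, were alternatives, edgeR also on the deposited counts, beside other scalings, filters, pseudocounts, transcripts, a stricter threshold and the leaving out of each library. The fit was also run on simulated data with far fewer changed genes than were called here, so that run does not bear on the scaling. The members and lists were chosen with earlier results of these data known. Values per library are given for class I chains, Tap1, Tap2, Tapbp, Nlrc5, immunosubunits and their partners, Psme1, Psme2 and genes whose call differed from their list, and from each pathway list up to 4 genes of lowest p are named. Some genes of these lists are not reported here. Promoters come from RefSeq's table for GRCm38.p6, and gene spans from the deposited files.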

Additional observations from a re-analysis of the deposited data

How the results depend on the processing

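Of 23 alternative settings, scaling by total exonic reads called the fewest of the 39 genes, 29 higher against the isotype antibody and 29 against untreated wells, and none of the 23 called a gene lower in either comparison. Leaving out 1 library at a time gave 32 to 38 genes higher against the isotype antibody and 33 to 36 against untreated wells. Over all tested genes these fits called 1918 to 2977 and 2360 to 3444 higher. Between isotype antibody and untreated wells the counts went from 0 to as many as 2 higher and 2 lower, both without untreated 7, where 1339 and 958 of all tested genes were called; the cause was not tested. Under every alternative run, the difference of each catalytic pair ratio moved by less than its pooled SD. Between PD-L1 and isotype antibody no sign turned. Between PD-L1 antibody and untreated wells, leave-outs took Psmb8 to Psmb5 from 0.08 to between -0.01 and 0.19. Psmb10 to Psmb7 went from 0.02 to between -0.04 and 0.11. Between isotype antibody and untreated wells, Psmb8 to Psmb5 went from 0.03 to between -0.08 and 0.14. The exact permutation test was not rerun, since it cannot pass with 3 libraries a group. No paired analysis was run, because the labels do not say whether wells of different groups share a mouse or culture. The running numbers (1 to 3, 4 to 6 and 7 to 9) do not settle this. All 39 genes were deep enough to be tested, and the number of libraries limits the precision of the ratios.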
